A study of Mus musculus with 33 samples.

Results

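The genes described are those of cytochrome P450 families 1, 2 and 3, the heme enzymes with which the liver oxidizes drugs, toxins, steroids and fatty acids. A gene entered when the platform annotation gave a probe set a single symbol starting with Cyp1, Cyp2 or Cyp3 followed by a letter. The probe set with the highest mean stood for the gene, and the gene was kept if its log2 signal was 5 or more on at least 3 of 33 arrays. This kept 35 of 43 genes, among 13642 genes of the whole array that passed the same filter. They are 2 genes of subfamily Cyp1a, 3 of Cyp2b, 10 of Cyp2c, 6 of Cyp2d, 3 of Cyp2j, 4 of Cyp3a and 1 each of Cyp1b, Cyp2a, Cyp2e, Cyp2f, Cyp2g, Cyp2r and Cyp2u. Cyp2b13 lay just inside the filter, with 4 arrays at 5 or more, followed by Cyp1b1 with 12 and by Cyp1a1 and Cyp3a44 with 13 each. Cyp2d12 lay just outside with 2 arrays, Cyp2j11 and Cyp2s1 had 1 each, and Cyp2b19, Cyp2c65, Cyp2d34, Cyp2j13 and Cyp3a16 had none.

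The study followed mouse liver after a 70% partial hepatectomy, an operation in which most of the liver is cut away and the remnant regrows. The groups are the day of operation (0 d), 0.25, 0.5 and 0.75 d, then 1, 1.5 and 2 d, then 3 and 4 d, and last 7 and 14 d, each with 3 samples labelled as biological replicates. The 0 d group was the reference, and no sham-operated group is named. The sources used here do not give the strain, sex or age of the mice. RNA of whole liver was measured on Affymetrix arrays as log2 signal, so a difference of 1 is a doubling or a halving. In bulk tissue, fewer cells of a type and less RNA per cell cannot be told apart. One description field names cells derived from fat, in conflict with the tissue given as liver, and 11 hepatocyte markers had a summed log2 signal between 17.48 and 17.60 on every array. Precision is limited by the 3 arrays per time, array medians lay between 5.32 and 5.38, and the highest value on an array lay between 14.80 and 14.89. The samples at 0.25, 0.5, 0.75 and 1.5 d carry deposit numbers apart from those of the other times, and the sources used here do not say whether they were processed apart.

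P450 enzymes of these families sit in the endoplasmic reticulum and receive electrons from P450 reductase and cytochrome b5. Most are made in hepatocytes, many of them around the central vein, and their genes answer to receptors for foreign chemicals: the aryl hydrocarbon receptor (AHR) for family 1, the constitutive androstane receptor (CAR, gene Nr1i3) for Cyp2b, and the pregnane X receptor (PXR, gene Nr1i2) for Cyp3a. Their basal activity in liver depends on hepatocyte factors such as HNF4-alpha and the C/EBP proteins, and inflammation is known to lower many of them.

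Most P450 genes fell within the first day after the operation, on different schedules. None was called different from 0 d at 7 d or 14 d, when only 0.183% and 0.0147% of all genes tested were called. At 0.5 d 19 of the 35 genes were lower and 2 higher than at 0 d (limma, Benjamini-Hochberg adjusted p under 0.05), beside 19.4% lower and 15.8% higher (35.2% either way) among all genes tested. Cyp1a2 and Cyp2c55 fell furthest, to 12.9% and 12.1% of their 0 d levels on the linear scale. A second set, led by Cyp2d10, Cyp2d22 and Cyp2d9, was lowest at 2 or 3 d. Cyp2b10 and Cyp3a13 instead rose at the earliest time.

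Over all times 30 of the 35 genes varied by the moderated F-test, beside 69.4% of all genes tested. Cyp1b1, Cyp2b9, Cyp2b13, Cyp2c38 and Cyp2j9 did not pass it. Against 0 d, 24 genes were called lower only, 5 higher only (Cyp1a1, Cyp1b1, Cyp2b10, Cyp2c39 and Cyp3a13), and Cyp2c55 in both directions at different times. The other 5, Cyp2b9, Cyp2b13, Cyp2c37, Cyp2c38 and Cyp3a44, were called at no time. The matching shares of all genes over the later times together were not counted, and 45.9% of all genes were called at 0.25 d alone. These totals therefore do not show how far the P450 genes depart from the array as a whole.

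Counted by time, 17 genes were lower and 4 higher at 0.25 d, beside 28.8% lower, 17.2% higher and thus 45.9% either way among all genes. At 0.75 d 17 were lower and 1 higher, beside 12.7% and 9.84% (22.5% either way). By 1 d 8 were lower and 3 higher, beside 9.55% and 8.16% (17.7% either way), and without 0 d replicate 1 the number called at 1 d was 7 in all. The count was 7 lower and 0 higher at 1.5 d, beside 11.7% and 8.33% (20% either way), and 7 lower and 0 higher at 2 d, beside 11.6% and 11% (22.5% either way) of all genes. At 3 d it rose again to 11 lower and 2 higher, beside 10.9% and 10.2% (21.2% either way). Only Cyp2d10 was still lower at 4 d, beside 0.975% lower, 1.88% higher and 2.86% either way among all genes, and without 0 d replicate 2 there were 4 such genes. At 7 d limma called none, beside 0.183% of all genes (0.0586% lower and 0.125% higher), with 4 lower and 1 higher at an unadjusted p under 0.05, and 1 was called without 0 d replicate 2. At 14 d it called none, beside 0.0147% of all genes, which was higher, with 1 lower and 0 higher at an unadjusted p under 0.05.

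The median difference of the 35 genes from 0 d was -0.36 at 0.25 d, -0.59 at 0.5 d and -0.39 at 0.75 d on the log2 scale. It was -0.36 at 1 d, -0.09 at 1.5 d, -0.23 at 2 d and -0.28 at 3 d, and then -0.10, -0.02 and -0.01 at 4, 7 and 14 d. The median over all genes tested stayed within 0.05 of 0 throughout. All 10 comparisons use the same 0 d arrays and are not independent of each other. The contrast of 1.5 d with the mean of 1 d and 2 d, which sets a sample of one run of deposit numbers between its neighbours of the other, called 0 of the 35 genes, beside 0.022% of all genes (0.0147% lower and 0.00733% higher), with 0 lower and 4 higher at an unadjusted p under 0.05.

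**Figure D1:**
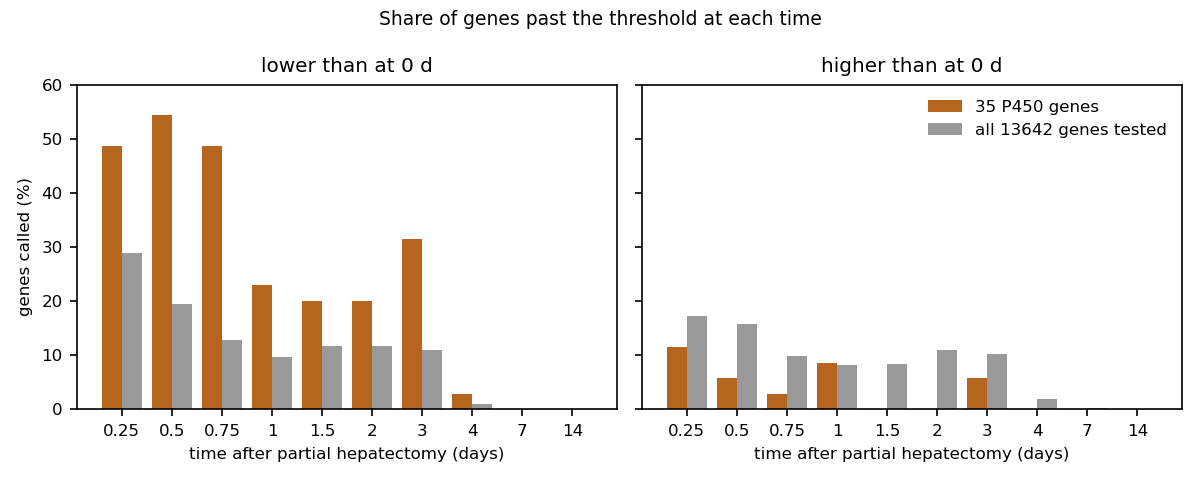
Share of the 35 P450 genes (brown) and of all 13642 genes tested (grey) that were lower (left) or higher (right) than at 0 d at an adjusted p under 0.05, by time after partial hepatectomy; times are evenly spaced. The brown bars exceed the grey ones among the lower genes from 0.25 d to 4 d, where the 4 d bar is 1 gene. There are no P450 bars on either side at 7 and 14 d. Counted in either direction, 20%, 20% and 2.86% of the P450 genes were called at 1.5, 2 and 4 d. The shares of all genes at these times were 20%, 22.5% and 2.86%, so those counts lie near the background.

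**Figure D2:**
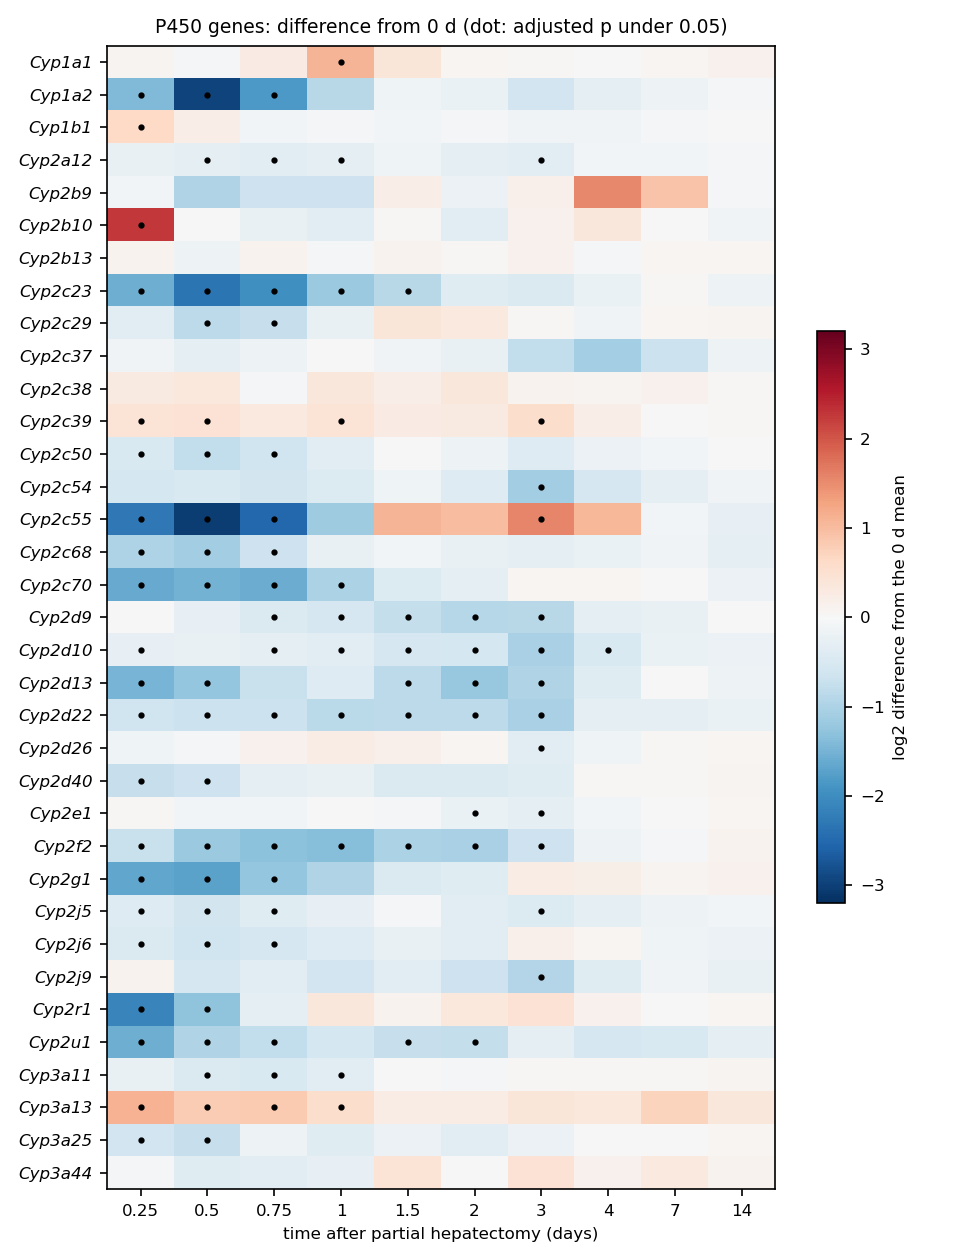
Difference of each P450 gene from its 0 d mean (log2, blue lower and red higher, n = 3 arrays per time) at the 10 later times, with a dot where the adjusted p was under 0.05. Blue cells with dots crowd the first 3 columns, a second group of dots among the Cyp2d genes reaches 3 d, and the last 2 columns hold none.

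In family 1, Cyp1a2, a pericentral enzyme that oxidizes caffeine and aromatic amines, was the gene with the deepest fall after Cyp2c55. Its log2 signal was 12.62, 12.08 and 12.62 at 0 d, fell to 11.33, 10.95 and 10.81 at 0.25 d and reached 9.46, 9.65 and 9.34 at 0.5 d. At 0.75 d it was 10.12, 10.22 and 11.48, and at 1 d 10.38, 12.13 and 12.12. All arrays from 0.25 d to 0.75 d lay below all 0 d arrays, while at 1 d replicates 2 and 3 were back among the 0 d values and replicate 1 was not. From 1.5 d onward the arrays lay between 11.37 and 12.56. The difference was -2.96 ± 0.34 at 0.5 d (SE, n = 3 per time, adjusted p = 2.0e-07, limma), and at 7 d the gene stood 2.80 ± 0.34 above its 0.5 d level.

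Cyp1a1, its neighbour in the same subfamily, is the classical AHR target and oxidizes polycyclic aromatic hydrocarbons. Except at 1 d it lay near the filter level of 5. It read 4.86, 4.65 and 5.04 at 0 d and 5.08, 6.42 and 6.30 at 1 d. Replicates 2 and 3 of 1 d stood above every other array of the course, on which Cyp1a1 lay between 4.65 and 5.35, and replicate 1 did not. The difference was 1.08 ± 0.21 (adjusted p = 0.00057, limma) and ranged from 0.83 to 1.50 as each array was left out. Cyp1b1, a mainly extrahepatic member, was called at 0.25 d (0.64 ± 0.24) on values of 5.29, 6.65 and 4.99 against 4.91, 4.84 and 5.25 at 0 d. That call rests on 1 array, since the difference was 0.14 without 0.25 d replicate 2. It also ended when 0 d replicate 1 (0.60) or 0 d replicate 2 (0.56) was omitted. The adipocyte hormone gene Adipoq was also raised on 0.25 d replicate 2, at 5.80 against 3.28 and 2.76 on the other arrays of that time. The part of fat RNA in the Cyp1b1 value was not tested.

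The bases before the transcription start of the 2 Cyp1a genes are shown because these neighbours were called in opposite directions, at different times. Each window holds the 150 bases before the start in RefSeq (mouse build GRCm38.p6), chr9:57683656-57683805 on the minus strand for Cyp1a2 and chr9:57697463-57697612 on the plus strand for Cyp1a1. Capitals mark matches to the TATA box (TATAAA) and to the core of the AHR-ARNT site (GCGTG), each searched on both strands.
Cyp1a2: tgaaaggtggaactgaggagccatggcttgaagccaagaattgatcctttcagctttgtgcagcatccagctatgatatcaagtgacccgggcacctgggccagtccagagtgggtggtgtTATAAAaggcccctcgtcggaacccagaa
Cyp1a1: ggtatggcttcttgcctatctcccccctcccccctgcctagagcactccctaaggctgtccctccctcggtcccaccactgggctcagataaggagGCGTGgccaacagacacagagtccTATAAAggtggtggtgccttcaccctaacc
Both windows hold a TATA box, at -29 to -24 in Cyp1a2 and at -30 to -25 in Cyp1a1, counted from the start. The Cyp1a1 window also holds an AHR-ARNT core at -54 to -50. Over their 250 bases before the start the windows of these genes were 44.1% identical, which is within the 36.8% to 49.8% found between genes of different subfamilies.

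Subfamily Cyp2b held the largest early rise. Cyp2b10, which hydroxylates barbiturates and is the standard readout of CAR activity in mouse liver, read 7.39, 6.26 and 7.14 at 0 d and 8.91, 8.71 and 9.96 at 0.25 d. By 0.5 d it was 6.50, 6.65 and 7.70, overlapping the 0 d arrays, and 0.25 d was the single time at which it was called. At 0.25 d the difference was 2.26 ± 0.32 (adjusted p = 3.2e-06, limma), a level 4.80 times that of 0 d, and the groups did not overlap. Its other probe sets gave 3.10 ± 0.58 and 3.21 ± 0.60 at that time. Nr1i3, the gene of CAR itself, was not called at any time and differed by -0.05 ± 0.35 at 0.25 d.

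Cyp2b9 and Cyp2b13, steroid-metabolizing genes known for higher levels in female mice, were called at no time. Cyp2b9 read 4.89, 4.40 and 6.41 at 0 d, and single arrays stood out later: 9.91 on 4 d replicate 1, where the others read 5.43 and 4.99, and 7.72 on 7 d replicate 1, where the others read 5.21 and 5.53. The 4 d replicate 1 array was also the highest of its time for Cyp2b10, at 7.96, and for Alas1, the first enzyme of heme synthesis, at 12.75. Cyp2b13 stayed between 4.41 and 5.11 on all arrays, near the filter level of 5.

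Windows of 150 bases before the start of Cyp2b10 (chr7:25897508-25897657, plus strand) and Cyp2b9 (chr7:26173259-26173408, plus strand, GRCm38.p6) are shown because these related genes, with 70.0% identity over 250 bases, gave differences of 2.26 ± 0.32 and -0.08 ± 0.79 at 0.25 d. The genes were not tested against each other. Capitals mark a C/EBP match (TTGCNNAA) and AHR-ARNT cores (GCGTG) in Cyp2b10 and a nuclear receptor half-site (AGGTCA) in Cyp2b9.
Cyp2b10: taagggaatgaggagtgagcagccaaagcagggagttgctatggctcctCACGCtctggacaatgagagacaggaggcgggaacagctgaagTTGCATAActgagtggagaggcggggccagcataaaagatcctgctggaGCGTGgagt
Cyp2b9: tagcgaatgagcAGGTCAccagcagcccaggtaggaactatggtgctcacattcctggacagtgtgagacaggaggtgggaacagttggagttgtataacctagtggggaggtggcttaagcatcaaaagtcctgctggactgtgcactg
The C/EBP match of Cyp2b10 lies at -58 to -51. Cyp2b9 has no match to that motif in the 150 bases shown but has one in the full window of 250 bases before to 50 after the start, so both genes hold it. The enhancer through which CAR acts on Cyp2b10 lies outside windows of this size.

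The 10 genes of subfamily Cyp2c, which oxidize arachidonic acid, retinoids, bile acids and drugs, formed the largest group. At 0.5 d 6 of them were lower and 1 was higher, with differences from -3.05 to 0.45, beside 19.4% lower and 15.8% higher among all genes. Cyp2c55, which makes hydroxylated products of arachidonic acid, had the widest excursion of all 35 genes. It read 8.34, 8.17 and 8.69 at 0 d, 6.03, 5.98 and 6.32 at 0.25 d, 5.44, 5.44 and 5.18 at 0.5 d and 5.40, 5.69 and 6.61 at 0.75 d. After 6.36, 7.61 and 7.82 at 1 d it read 9.71, 10.15 and 8.59 at 1.5 d, 8.61, 9.12 and 10.45 at 2 d and 9.49, 10.74 and 9.62 at 3 d. It was still 9.45, 9.61 and 9.36 at 4 d and then read 8.32, 8.63 and 8.02 at 7 d.

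Thus all 3 arrays at 0.5 d lay below, and all 3 at 3 d lay above, every 0 d array. The differences from 0 d were -3.05 ± 0.43 at 0.5 d (adjusted p = 4.0e-06) and 1.55 ± 0.43 at 3 d (adjusted p = 0.011, limma). Between 0.5 d and 3 d the level rose by 4.60 ± 0.43. The higher level at 3 d lost its call without 3 d replicate 2, where the difference was 1.16. At 1.5, 2 and 4 d the gene was not called.

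The window of Cyp2c55 (chr19:39006869-39007018, plus strand, GRCm38.p6) is shown for the gene that moved both ways. A TATA box at -29 to -24, in capitals, was the single match to the motifs searched in these 150 bases.
Cyp2c55: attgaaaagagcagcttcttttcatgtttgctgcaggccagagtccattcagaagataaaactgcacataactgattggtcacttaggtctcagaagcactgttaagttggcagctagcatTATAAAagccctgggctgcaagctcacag

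Cyp2c23, an arachidonic acid epoxygenase, fell early and came back slowly. Its values were 11.89, 12.13 and 11.93 at 0 d, 9.93, 9.66 and 9.33 at 0.5 d, 10.17, 11.22 and 11.02 at 1 d and 11.20, 11.33 and 10.73 at 1.5 d. Each of these later arrays lay below all 0 d arrays. The difference was -2.34 ± 0.21 at 0.5 d (adjusted p = 3.6e-09, limma), and the gene was called lower at the 5 times from 0.25 d to 1.5 d. Its probe set is of a kind that can also bind related transcripts.

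Cyp2c70, the enzyme that makes the mouse bile acids called muricholic acids, read 13.26, 12.88 and 13.30 at 0 d. It fell to 12.11, 11.73 and 10.76 at 0.25 d, stayed at 11.47, 11.82 and 11.61 at 0.5 d and was 13.18, 13.21 and 13.21 at 3 d. The early arrays lay below all 0 d arrays and the 3 d arrays among them. At 0.25 d the difference was -1.61 ± 0.30 (adjusted p = 0.00011, limma). Cyp2c68, Cyp2c50 and Cyp2c29 followed a like course with smaller falls, to -1.11 ± 0.15, -0.79 ± 0.16 and -0.83 ± 0.16 at 0.5 d. Cyp2c29 read 13.13, 12.89 and 13.39 at 0 d and 12.41, 12.61 and 11.92 at 0.5 d, with no overlap. At 1.5 d its arrays stood at 13.64, 13.65 and 13.30, but that difference was not called.

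Cyp2c54, Cyp2c37 and Cyp2c38 behaved less evenly, and 0 d replicate 2 was low for each of them. For Cyp2c37 that array read 10.18, against 11.96 and 12.06 on the other 0 d arrays. The values at 4 d were 10.47, 10.24 and 10.26, a difference of -1.08 ± 0.31 that was not called (adjusted p = 0.060, limma). With 0 d replicate 2 left out the same difference was -1.69 ± 0.23 and was called. Cyp2c54 read 12.45, 11.24 and 12.58 at 0 d and 11.03, 10.54 and 11.38 at 3 d, a difference of -1.10 ± 0.27 (adjusted p = 0.0040) in spite of overlapping arrays. Cyp2c38 was called at no time, with 8.35, 7.66 and 8.83 at 0 d. The same 0 d array was also the lowest of its group for Cyp2c50 (12.28), Cyp2b10 (6.26), Cyp1a2 (12.08), Nr1i3 (8.98) and Ahr (8.53). The part of that array in these results was measured only by leaving it out.

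Cyp2c39 was the member of this subfamily that moved the other way. It read 5.19, 5.17 and 5.50 at 0 d, 5.57, 5.67 and 5.95 at 0.25 d, 5.69, 5.73 and 5.80 at 0.5 d, 5.73, 5.80 and 5.67 at 1 d and 5.82, 6.06 and 5.68 at 3 d. The arrays of these times lay above all 0 d arrays by small margins. Its difference at 3 d was 0.56 ± 0.14 (adjusted p = 0.0051, limma), and between 0.46 and 0.67 with each array left out. The differences at 0.25, 0.5 and 1 d were 0.44, 0.45 and 0.44. Each of these calls depended on single arrays, 0 d replicate 2 at all 3 times, 0 d replicate 1 at 0.5 and 1 d, replicate 3 of each of the 3 times and replicates 1 and 2 of 1 d, and the differences ranged from 0.33 to 0.56 as each array was left out. At 7 d it was 0.48 ± 0.14 below its 0.5 d level, the one P450 gene lower in that contrast.

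**Figure D3:**
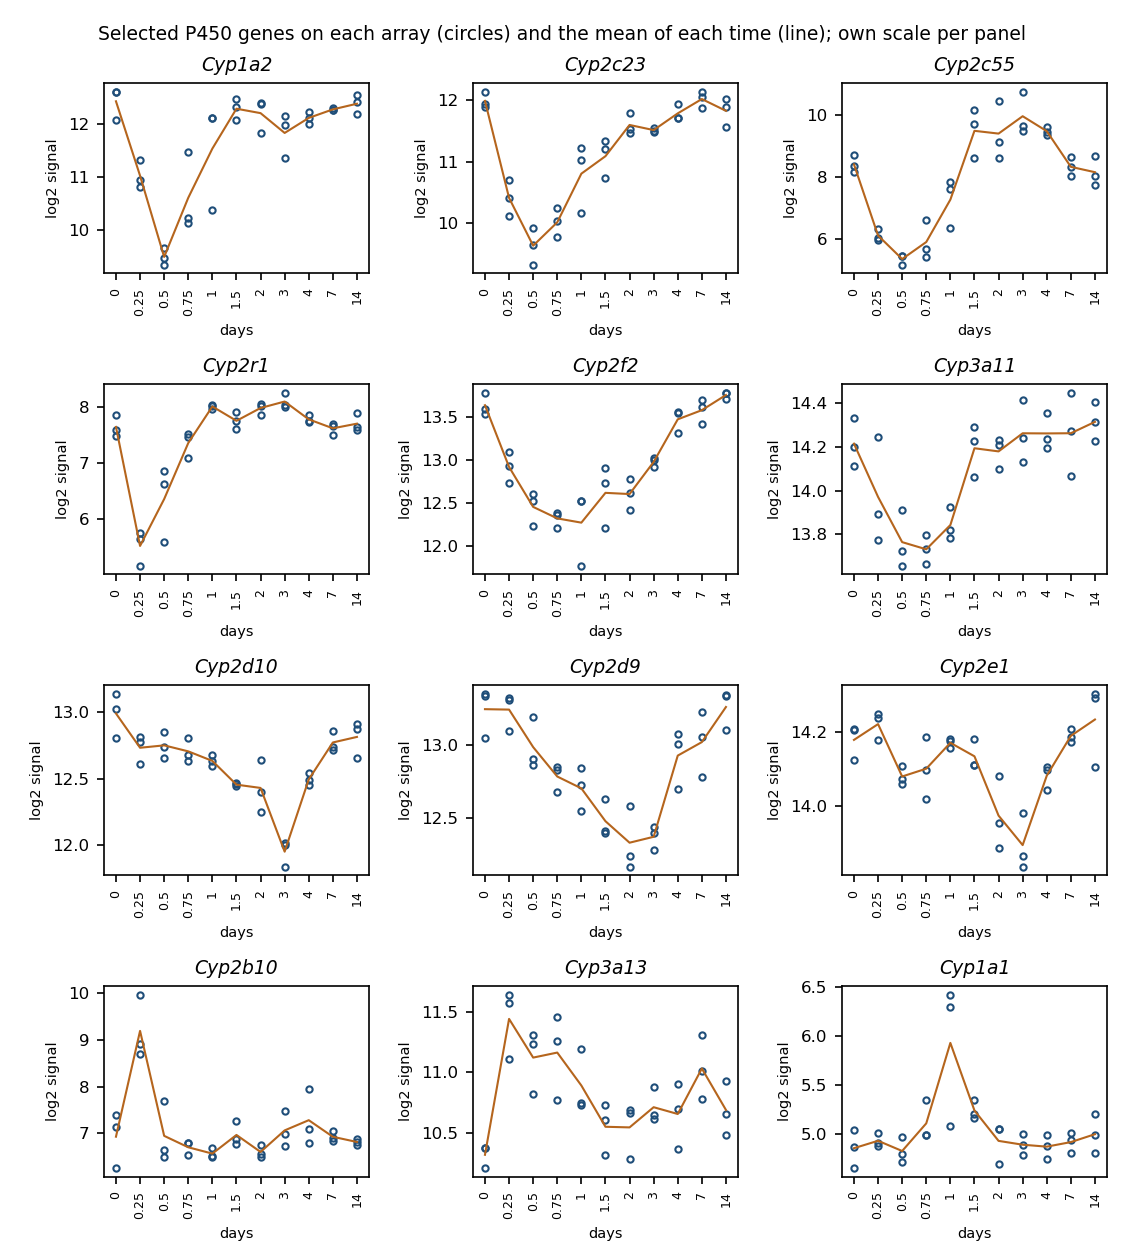
Log2 signal of 12 P450 genes on each array (circles) and the mean of each time (line) against days after partial hepatectomy; times are evenly spaced and each panel has its own scale, so levels are not to be compared between panels. The first 6 genes dip between 0.25 and 1 d, Cyp2d10, Cyp2d9 and Cyp2e1 are lowest at 2 or 3 d, and Cyp2b10, Cyp3a13 and Cyp1a1 peak within the first day.

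Subfamily Cyp2d, whose human counterpart CYP2D6 handles many drugs, was lower at early and late times alike. Of its 6 genes 4 were lower than at 0 d at 0.25 d, 3 at each of 0.5, 0.75 and 1 d, 4 at 1.5 d and at 2 d, and 5 at 3 d, all but Cyp2d40, and 0 were higher at any of these times. Among all genes 28.8% were lower at 0.25 d, 19.4% at 0.5 d, 11.6% at 2 d and 10.9% at 3 d. Cyp2d10 read 13.03, 12.81 and 13.14 at 0 d, 12.66, 12.74 and 12.85 at 0.5 d, 12.59, 12.63 and 12.68 at 1 d, 12.40, 12.64 and 12.25 at 2 d and 12.00, 11.84 and 12.01 at 3 d. It then read 12.54, 12.45 and 12.49 at 4 d and 12.66, 12.87 and 12.91 at 14 d. The means fell from 0.5 d to 3 d, and at 3 d every array lay far below the 0 d group. At 3 d the difference was -1.04 ± 0.09 (adjusted p = 7.6e-08, limma), and at 4 d it was still -0.50 ± 0.09 (adjusted p = 0.0051). Its early calls at 0.25 d (-0.26), 0.75 d (-0.28) and 1 d (-0.36) all ended when 0 d replicate 3 was left out, and the first 2 also without 0 d replicate 1 or replicate 1 of the later time, and at 0.75 d without its replicate 3. The differences then ranged from -0.28 to -0.18.

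Cyp2d9, a steroid 16-alpha-hydroxylase known for higher levels in male mice, read 13.34, 13.05 and 13.35 at 0 d and 13.10, 13.31 and 13.32 at 0.25 d. Those groups overlapped, but by 2 d the values were 12.24, 12.58 and 12.16, and at 3 d 12.39, 12.27 and 12.44. Its lowest mean was at 2 d, with a difference of -0.92 ± 0.13 (adjusted p = 1.2e-05, limma), and it was called lower from 0.75 d to 3 d. At 14 d it read 13.10, 13.34 and 13.34 again. Leaving out 0 d replicate 1, 0 d replicate 3 or 0.75 d replicate 3 ended the call at 0.75 d, with differences of -0.42, -0.41 and -0.41 in place of -0.46.

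Cyp2d22, a gene often compared with human CYP2D6, was lower at all 7 times from 0.25 d to 3 d. Its 0 d arrays agreed closely, at 10.72, 10.71 and 10.78, and it read 9.93, 10.08 and 10.13 at 0.5 d and 9.75, 9.56 and 9.81 at 3 d. No array of these times overlapped the 0 d arrays, and the difference grew from -0.63 ± 0.11 at 0.25 d to -1.03 ± 0.11 at 3 d (adjusted p = 3.8e-07, limma). Cyp2d13 fell in both phases: 9.55, 9.50 and 9.77 at 0 d, 7.44, 8.65 and 8.28 at 0.25 d, 9.45, 9.12 and 9.04 at 1 d and 8.49, 8.41 and 8.29 at 2 d. Its differences were -1.49 ± 0.28, -0.41 ± 0.28 and -1.21 ± 0.28 at 0.25, 1 and 2 d, the middle one not called.

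Cyp2d26 stood apart within the subfamily, since it was called at 3 d alone. It read 13.15, 12.93 and 13.23 at 0 d and 12.69, 12.81 and 12.82 at 3 d, a difference of -0.33 ± 0.10. Omitting 0 d replicate 1, 0 d replicate 3 or 3 d replicate 1 ended the call, and the difference ranged from -0.41 to -0.26 over the arrays omitted. Cyp2d40, near the lower end of the signal range, was called at 0.25 d (-0.73 ± 0.25) and 0.5 d (-0.67 ± 0.25) with overlapping arrays. Both of its calls were lost without 0 d replicate 1, with differences of -0.50 and -0.44, and likewise without 0 d replicate 3, and without replicate 1 or replicate 3 of the later time.

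The windows of Cyp2d9 (chr15:82452227-82452376, plus strand) and Cyp2d10 (chr15:82407195-82407344, minus strand, GRCm38.p6) are shown because these genes shared the late low and, with 82.3% identity over 250 bases, have closely related windows. Cyp2d26, which was not called before 3 d, was 50.2% identical to Cyp2d9, and its window (chr15:82794246-82794395, minus strand) is set beside them. Capitals mark the TATA box read on the opposite strand (TTTATA) and, in Cyp2d26, an HNF1 half-site (GTTAAT, read on the opposite strand as ATTAAC).
Cyp2d9: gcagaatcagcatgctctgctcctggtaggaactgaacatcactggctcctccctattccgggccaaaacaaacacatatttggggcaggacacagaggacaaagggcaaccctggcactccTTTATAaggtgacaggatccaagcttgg
Cyp2d10: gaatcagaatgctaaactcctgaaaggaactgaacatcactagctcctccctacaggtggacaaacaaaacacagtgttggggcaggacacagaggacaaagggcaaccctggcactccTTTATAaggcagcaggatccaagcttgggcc
Cyp2d26: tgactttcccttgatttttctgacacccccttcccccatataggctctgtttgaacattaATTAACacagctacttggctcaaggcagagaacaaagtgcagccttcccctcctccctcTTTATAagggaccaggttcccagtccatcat
The TATA matches lie at -28 to -23 in Cyp2d9 and at -31 to -26 in both Cyp2d10 and Cyp2d26. The HNF1 half-site of Cyp2d26 lies at -90 to -85.

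Cyp2e1 and Cyp2f2 are marks of the opposite ends of the liver lobule. Cyp2e1, the pericentral enzyme of ethanol and acetaminophen metabolism, read 14.21, 14.12 and 14.21 at 0 d, 14.07, 14.06 and 14.11 at 0.5 d and 13.87, 13.84 and 13.98 at 3 d. Its values lie near the top of the arrays' range, where differences may be compressed. The difference at 3 d was -0.28 ± 0.06 (adjusted p = 0.0023, limma), and no array overlapped the 0 d group. The smaller difference at 2 d, -0.20 ± 0.06, was no longer called when 0 d replicate 1 or 3, or 2 d replicate 2 or 3, was omitted, and ranged from -0.26 to -0.16 over the arrays omitted.

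Cyp2f2, the naphthalene-oxidizing enzyme that marks periportal hepatocytes in mouse liver, was low from 0.25 d to 3 d. It read 13.78, 13.59 and 13.53 at 0 d, 12.74, 12.93 and 13.10 at 0.25 d, 12.53, 12.60 and 12.24 at 0.5 d and 11.77, 12.52 and 12.53 at 1 d. At 3 d it was 13.00, 13.02 and 12.91, and at 14 d 13.71, 13.78 and 13.78. All arrays from 0.25 d to 3 d lay below the 0 d arrays, and the gene was called lower at these 7 times. The lowest mean was at 1 d, with a difference of -1.36 ± 0.16 (adjusted p = 2.5e-06, limma).

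Zonation genes outside the P450 families were also counted at the early times. Of 15 pericentral genes 7 were lower and 0 higher at 0.25 d, and 5 were lower and 0 higher at 0.5 d. Glul, the glutamine synthetase of the last pericentral cell layer, was not called at either time (0.30 ± 0.22 and -0.12 ± 0.22). Of 11 periportal genes 4 were lower and 1 higher at 0.25 d and 4 lower and 0 higher at 0.5 d, among them Hal, which degrades histidine (-1.44 ± 0.37 at 0.25 d). Among all genes 28.8% were lower and 17.2% higher at 0.25 d, and 19.4% were lower and 15.8% higher at 0.5 d. The periportal counts at 0.25 d thus lie near the background.

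Among the single-gene subfamilies, Cyp2r1, the main vitamin D 25-hydroxylase, was lowest at 0.25 d. It read 7.60, 7.50 and 7.86 at 0 d, 5.18, 5.65 and 5.75 at 0.25 d, 6.87, 6.63 and 5.59 at 0.5 d and 7.46, 7.53 and 7.10 at 0.75 d. At 3 d it was 8.01, 8.26 and 8.04. All arrays of the first 2 times lay below the 0 d arrays, and the difference was -2.12 ± 0.20 at 0.25 d (adjusted p = 1.6e-08, limma), 23.0% of the 0 d level. Its 3 d arrays lay above all 0 d arrays, but that difference of 0.45 was not called.

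Cyp2g1, best known from olfactory tissue, fell from 6.42, 6.91 and 5.99 at 0 d to 4.83, 4.78 and 4.56 at 0.5 d, below the filter level of 5. It was back at 6.58, 6.77 and 6.70 at 3 d. At 0.5 d the difference was -1.71 ± 0.36 (adjusted p = 0.00050, limma). At 0.75 d it was -1.24 ± 0.36, which passed neither when 0 d replicate 2 was omitted (-1.01) nor when 0.75 d replicate 1 was (-1.10). Cyp2u1, a fatty acid hydroxylase, read 7.76, 8.19 and 7.68 at 0 d and 5.95, 6.33 and 6.66 at 0.25 d, a difference of -1.57 ± 0.24 (adjusted p = 1.0e-05). Its other probe set gave -0.50 ± 0.21 at that time and 0.09 ± 0.21 at 0.5 d, neither called, so the size and length of its fall depend on the probe set.

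Cyp2a12, which acts on steroids and bile acids, showed small differences throughout. It read 12.77, 12.63 and 12.63 at 0 d and 12.21, 12.39 and 12.39 at 3 d, and its called differences lay between -0.35 and -0.30. The 3 d call ended when 0 d replicate 1 (-0.30) or 3 d replicate 1 (-0.29) was omitted, and those at 0.5, 0.75 and 1 d likewise with 0 d replicate 1 and with 2 to 4 other arrays each (-0.41 to -0.20 in all). Cyp2j5, an epoxygenase of liver and kidney, read 12.14, 12.00 and 12.01 at 0 d, 11.67, 11.74 and 10.95 at 0.5 d and 11.59, 11.45 and 11.76 at 3 d. The groups did not overlap, and the difference at 0.5 d was -0.59 ± 0.14 (adjusted p = 0.0015, limma). Its difference at 3 d, -0.45 ± 0.14, was not called when 0 d replicate 1 or 3 d replicate 1 or 2 was omitted, with a range of -0.53 to -0.37 over the arrays omitted. Cyp2j6 was likewise lowest at 0.5 d (-0.65 ± 0.16), with another probe set at -0.93 ± 0.19. That other probe set was also called lower at 1 d (-0.75), 1.5 d (-0.75) and 2 d (-0.91), where the chosen one was not (-0.40, -0.23 and -0.34), and at 3 d they gave -0.51 and 0.17, neither called, so the length of the fall depends on the probe set. Cyp2j9 was called at 3 d alone (-0.94 ± 0.32), and that call ended when 0 d replicate 2, 0 d replicate 3 or any 3 d array was omitted, with a range of -1.12 to -0.79 over the arrays omitted.

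Subfamily Cyp3a held the counterparts of the major human drug-metabolizing enzyme CYP3A4. Cyp3a11, the chief PXR target in mouse liver, read 14.20, 14.11 and 14.33 at 0 d, 13.91, 13.66 and 13.73 at 0.5 d, 13.73, 13.66 and 13.80 at 0.75 d and 14.29, 14.23 and 14.06 at 1.5 d. The arrays of 0.5 and 0.75 d lay below all 0 d arrays and those of 1.5 d overlapped them. Its lowest mean was at 0.75 d (-0.48 ± 0.11, adjusted p = 0.0019, limma), on values near the top of the arrays' range, where differences may be compressed. At 1 d the difference was -0.37 ± 0.11, which was not called when 0 d replicate 3 or 1 d replicate 2 or 3 was omitted (range -0.42 to -0.31 over the arrays omitted). Cyp3a25 followed, with -0.74 ± 0.19 at 0.5 d. Its call at 0.25 d (-0.61 ± 0.19) was lost without 0.25 d replicate 1 (-0.52).

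Cyp3a13, a member of the subfamily also known from intestine, rose while these fell. It read 10.21, 10.37 and 10.37 at 0 d, 11.11, 11.57 and 11.64 at 0.25 d, 11.31, 11.23 and 10.82 at 0.5 d and 11.26, 11.46 and 10.77 at 0.75 d. Every one of these later arrays lay above all 0 d arrays. The difference was 1.12 ± 0.19 at 0.25 d (adjusted p = 4.1e-05, limma), 2.18 times the 0 d level, and 0.80 ± 0.19 and 0.85 ± 0.19 at 0.5 and 0.75 d. At 1 d it was 0.57 ± 0.19, a call that ended when any 0 d array or 1 d replicate 1 was omitted (range 0.42 to 0.65 over the arrays omitted). At 7 d it stood at 11.31, 10.78 and 11.01, above the 0 d arrays, but the difference of 0.71 ± 0.19 was not called (adjusted p = 0.11). Cyp3a44, near the lower end of the range, was called at no time against 0 d and was 0.85 ± 0.21 higher at 3 d than at 0.5 d.

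The early and late declines were set against each other in a contrast of 3 d with 0.5 d, which does not use the 0 d arrays and was chosen after the times of the lowest means had been seen. In it 5 genes were lower and 14 higher at 3 d, beside 16.7% lower and 18.3% higher (35.1% either way) among all genes. The 5 lower genes are 14.3% of the 35, so their number lies near the background. The 5 lower genes were Cyp2d10 (-0.80 ± 0.09, adjusted p = 3.9e-07, limma), Cyp2d9 (-0.62 ± 0.13), Cyp2d22 (-0.34 ± 0.11), Cyp2d26 (-0.28 ± 0.10) and Cyp2e1 (-0.19 ± 0.06). The largest of the 14 were Cyp2c55 (4.60 ± 0.43), Cyp1a2 (2.36 ± 0.34), Cyp2g1 (1.96 ± 0.36), Cyp2c23 (1.87 ± 0.21), Cyp2r1 (1.74 ± 0.20) and Cyp2c70 (1.57 ± 0.30). Thus 4 of the 6 Cyp2d genes were called lower at 3 d than at 0.5 d. Of the 10 Cyp2c genes 5 were called higher and 0 lower. Cyp2c54 nevertheless differed by -0.62, a fall of the size of that of Cyp2d9, without a call. Its arrays did not overlap, at 11.03, 10.54 and 11.38 against 11.51, 11.57 and 11.74. Cyp2c37 was also lower without overlap, at 10.69, 10.30 and 10.88 against 11.11, 10.96 and 11.30.

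**Figure D4:**
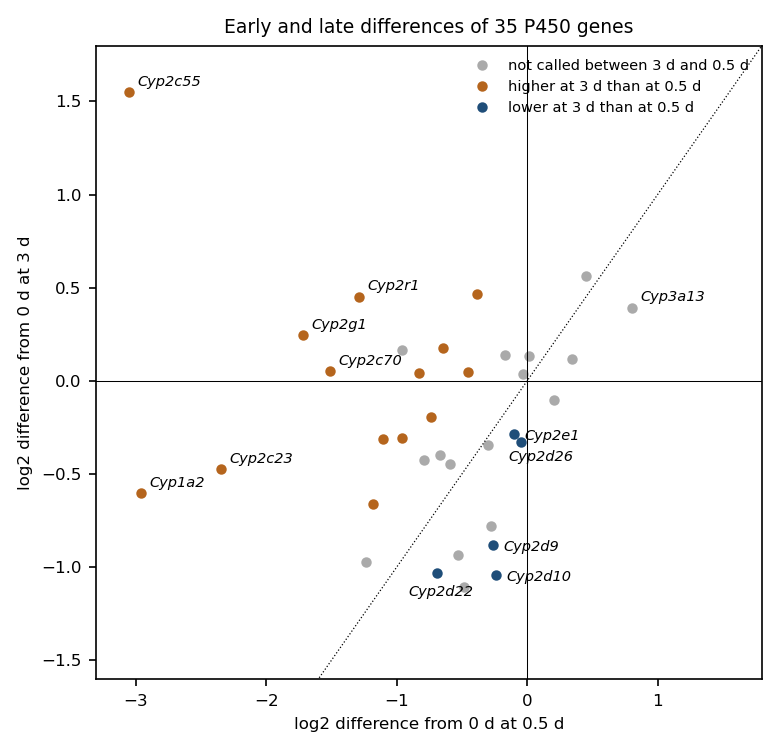
Difference from 0 d at 0.5 d (x) and at 3 d (y), both log2, for the 35 P450 genes; colours give the call of 3 d against 0.5 d and the dotted line marks equal differences. Both axes use the same 0 d arrays. The 14 genes higher at 3 d lie above the line with Cyp2c55 at the upper left, and the 5 lower ones, 4 of them Cyp2d genes, lie below it.

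Return toward the starting level was measured between 0.5 d and 7 d, where 18 genes were higher and 1 was lower, beside 18% higher and 17.5% lower (35.4% either way) among all genes. The rise was 2.97 ± 0.43 for Cyp2c55, 2.80 ± 0.34 for Cyp1a2 and 2.37 ± 0.21 for Cyp2c23. Between 7 d and 14 d limma called 0 of the 35 genes, beside 0% of all genes, with 0 lower and 0 higher at an unadjusted p under 0.05.

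Genes that supply P450 enzymes with electrons and heme were also measured. Of 13 such genes tested, 8 were lower and 2 higher at 0.25 d, 7 lower and 2 higher at 0.5 d, 4 lower and 2 higher at 0.75 d, and 0 from 4 d onward. All genes gave 28.8% lower and 17.2% higher at 0.25 d, 19.4% and 15.8% at 0.5 d, and 12.7% and 9.84% at 0.75 d, so the number of higher genes is near the background at 0.25 and 0.5 d. Cyb5r3, the reductase of cytochrome b5, read 12.15, 12.09 and 12.27 at 0 d and 10.69, 10.62 and 10.58 at 0.5 d. The groups were far apart, with a difference of -1.54 ± 0.09 (adjusted p = 1.2e-12, limma), and the gene was called lower until 3 d. Cyb5b, a cytochrome b5 of the mitochondrial outer membrane, read 11.32, 11.17 and 11.66 at 0 d and 9.08, 9.70 and 9.44 at 0.25 d (-1.98 ± 0.18). Pgrmc1, a heme-binding partner of P450 enzymes, was lower by smaller amounts until 1.5 d (-0.37 ± 0.06 at 0.5 d).

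In heme synthesis Alad, Uros, Urod, Ppox and Fech were lower at 0.25 d, with differences from -0.87 ± 0.18 for Alad to -0.35 ± 0.09 for Urod, while Cpox was higher (0.68 ± 0.22). Alas1, the first and rate-limiting enzyme, was called at no time. Hmox1, which degrades heme, read 6.59, 6.60 and 6.59 at 0 d and 8.29, 8.04 and 8.94 at 0.5 d, a difference of 1.83 ± 0.27 (adjusted p = 8.9e-06, limma) with no overlap.

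Among transcription factors that act on P450 genes, some were lower and others higher. Of 21 tested, 8 were lower and 5 higher at 0.25 d, 6 lower and 2 higher at 0.5 d, 7 lower and 1 higher at 1.5 d, 5 lower and 0 higher at 3 d, and 0 from 4 d onward. The shares of all genes were 28.8% lower and 17.2% higher at 0.25 d, 19.4% and 15.8% at 0.5 d, 11.7% and 8.33% at 1.5 d, and 10.9% and 10.2% at 3 d, so the counts at 0.25 d lie near the background in both directions. Cebpa, a main hepatocyte factor, had a mean of 11.15 at 0 d and read 9.89, 9.95 and 8.78 at 0.5 d, below all 0 d arrays. It was called lower from 0.25 d to 2 d, with -1.61 ± 0.23 at 0.5 d (adjusted p = 3.7e-06, limma). The related acute-phase factors Cebpb and Cebpd were higher at 0.25 d, by 1.17 ± 0.24 and 2.57 ± 0.40. Nr3c1, the glucocorticoid receptor, was lower from 0.25 d (-1.23 ± 0.15) to 3 d, and Hnf4a was 0.32 ± 0.08 higher at 0.25 d.

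Ahr, the gene of the receptor AHR, read 10.03, 10.01 and 9.98 at 1 d against 9.53, 8.53 and 9.30 at 0 d. The difference was 0.89 ± 0.24 (adjusted p = 0.012, limma). On the same 1 d arrays, in the same order, Cyp1a1 read 5.08, 6.42 and 6.30. The part of Ahr in the Cyp1a1 rise was not tested. Neither Nr1i3 nor Nr1i2 was called at any time. The clock output factors Dbp, Tef and Hlf were lower at 0.25 and 0.5 d and their antagonist Nfil3 was higher. For Dbp the 0 d arrays themselves were spread, at 11.05, 11.65 and 8.36. The sources used here do not give the hour of day at which each liver was taken, and the part of time of day in the P450 results was not tested.

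**Figure D5:**
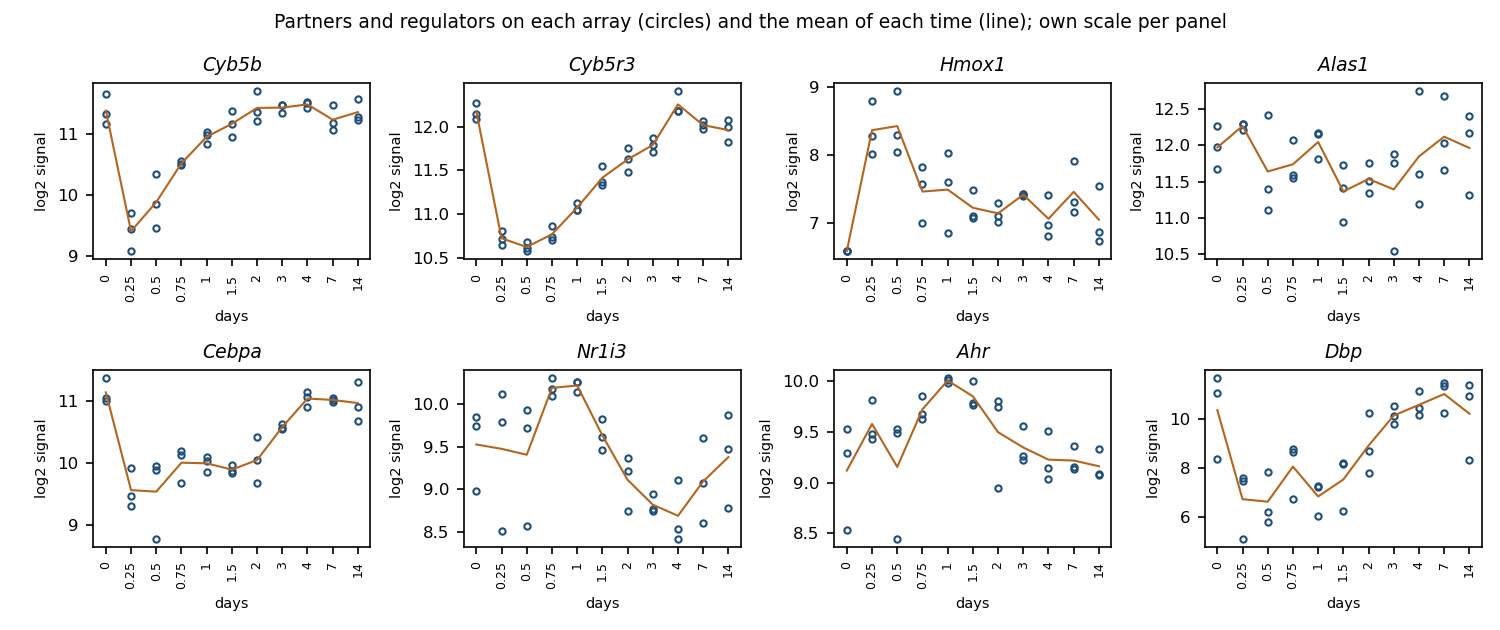
Log2 signal of 4 partner genes (top) and 4 transcription factor genes (bottom) on each array (circles) with the mean of each time (line), against days after partial hepatectomy; times are evenly spaced and each panel has its own scale. Cyb5b, Cyb5r3, Cebpa and Dbp are low and Hmox1 is high at 0.25 and 0.5 d, Ahr is highest at 1 d, and the Dbp arrays at 0 d spread from 8.36 to 11.65.

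Other processes and cell types were measured on the same arrays. Among all genes 28.8% were lower and 17.2% higher at 0.25 d, and 19.4% and 15.8% at 0.5 d. At 2 d these shares were 11.6% and 11%, at 3 d 10.9% and 10.2%, and at 14 d 0% and 0.0147%. The endothelial and stellate counts below lie near these shares, and the share of hepatocyte markers called lower is smaller. All 17 acute-phase genes were higher at 0.25 d, 15 at 0.5 d and 13 at 3 d, and none was at 14 d. Of 9 proliferation genes all were higher at 2 d and at 3 d. The 12 Kupffer cell markers had a summed log2 signal of 11.89 to 12.44 at 0 d, 11.33 to 11.77 at 0.5 d, with 4 of 12 lower and 1 higher, and 12.94 to 13.31 at 3 d, with 5 of 12 higher and 0 lower. The 10 neutrophil and monocyte markers summed to 8.33 to 8.53 at 0 d and 9.22 to 9.56 at 0.25 d, where 5 of the 8 tested were higher. The 5 adipocyte markers summed to 7.89 to 9.12 at 0 d and 10.67 to 11.04 at 0.25 d, where 2 of the 4 tested were higher, with the defining marker Adipoq at 2.76 and 3.28 on all but 1 array of that time and at 5.38 on 0 d replicate 3. The 5 erythroid markers summed to 10.03 to 10.38 at 0 d, 8.95 to 9.10 at 0.25 d, 8.37 to 8.71 at 0.5 d and 8.88 to 9.30 at 3 d, with 2 of the 3 tested lower at each time from 0.25 d to 3 d, and to 9.98 to 10.33 at 7 d. The 8 cholangiocyte markers summed to 7.92 to 8.25 at 0 d and 8.42 to 8.76 at 0.25 d, where 3 of the 5 tested were higher. Of 12 endothelial markers 4 were lower and 1 higher at 0.25 d and 3 lower and 1 higher at 0.5 d, with sums of 11.31 to 11.72 at 0 d, 11.45 to 11.68 at 0.25 d and 11.33 to 11.40 at 0.5 d. Of 12 stellate and mesenchymal markers 2 were lower and 2 higher at 0.25 d and 3 lower and 2 higher at 0.5 d, with sums of 11.91 to 12.82 at 0 d and 12.19 to 12.27 at 0.5 d. The 9 lymphocyte markers summed to 8.48 to 8.57 at 0 d and 8.45 to 8.56 at 0.5 d. Of 11 hepatocyte markers 1 was lower and 2 were higher at 0.25 d. The part of these processes and cell types in the P450 results was not tested.

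Sequence around the start was compared for the 29 of 35 genes with a RefSeq window of 250 bases before to 50 after the start. A TATA box (TATAAA) was present in 16 of the 29 genes (55.2%) against 13.6% of 32851 windows, a nuclear receptor half-site (AGGTCA) in 11 (37.9%) against 16.3%, and a C/EBP motif (TTGCNNAA) in 6 (20.7%) against 10.8%. The HNF4 core (AAAGTCCA) was found in 3 (10.3%) against 1.25%, namely in Cyp2c68, Cyp2c70 and Cyp3a11. The HNF1 half-site (GTTAAT) was found in 2 (6.9%) against 7.1%, the D-box of Dbp, Tef and Hlf (TTANGTAA) in 1 (3.45%) against 2.32%, and the AHR-ARNT core (GCGTG) in 6 (20.7%) against 32.4%. The P450 shares are per gene, with a match in any window of the gene, while the shares of all windows are per window. Per window, the 31 windows of these genes gave 51.6% for the TATA box, 38.7% for the nuclear receptor half-site and 22.6% for C/EBP. The HNF4 core gave 9.68%, the HNF1 half-site 6.45%, the D-box 3.23% and the AHR-ARNT core 19.4%. Both strands were searched, and matches of different motifs may overlap. These are counts of letters in windows, and closely related members share sequence: 47 pairs of the same subfamily were 43.7% to 99.2% identical, with Cyp2b9 and Cyp2b13 at the top, against 36.8% to 49.8% for 359 pairs of different subfamilies.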

How the data were processed

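The data are 33 arrays, 3 per time. Per the labels' protocols, 5 µg of total RNA, purified with Trizol, went into a 3' amplification kit. The deposited values are log2 signals that the authors made with RMA, whose version is not recorded, per the submitters' processing notes. RMA makes the arrays' distributions alike, which removes a shift common to most genes. Differences near both ends of the signal range may be compressed, which was not measured here. No arrays were identical.

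Of 45101 probe sets 34945 had a single symbol in the platform annotation, 932 had several and 9160 none, and 64 were controls. Each of 18193 genes was read from its probe set of highest mean, and 13642 genes reached 5 on at least 3 arrays. All arrays entered a limma 3.58.1 fit with 1 mean for each time (R 4.3.3; lmFit, eBayes; 22 residual and 3.69 prior degrees of freedom). Two-sided p-values were adjusted by Benjamini-Hochberg over all genes within a comparison, with a threshold of 0.05, and ± gives the model's standard error. Both rest on the spread between samples of the same time, pooled over all times and moderated across genes. They are therefore not the spread at the times compared alone. Of 9 other probe sets of the P450 genes 7 passed the filter, and in the 24 comparisons called in both probe sets 0 had opposite directions.

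The members and lists were chosen with earlier results of these data known, and the contrast of 3 d with 0.5 d was added after seeing the data. Any member could be named. Values by array were to be given for the member with the highest 0 d mean in each subfamily, the 6 largest rises and falls, and members called both ways; other members given by array were chosen after their values were seen. On simulated data for 2 d against 0 d over 13642 genes, the fit recovered 52.2% of changes of 0.5, 88.1% of changes of 1 and 100% of changes of 2, and 4.19% of its calls were false. The simulation changed only 67, 67 and 66 genes by these amounts, at 2 d alone, with independent normal noise. In the data 22.5% of genes were called at 2 d, so these rates need not hold there. Alternatives were other filters, probe set rules, normalizations, variance models, array weights, the replicate number as a block, only the arrays compared, a joint adjustment, and each array left out. Promoter windows are RefSeq's (GRCm38.p6), aligned globally with Biopython 1.88. Matplotlib 3.10.9 under Python 3.11.15 made the plots.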

Additional observations from a re-analysis of the deposited data

How the results depend on the processing

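The number of P450 genes called was recomputed under every alternative. In this paragraph, brackets after such a number hold the count of the analysis reported. Settings other than leaving out an array gave 16 to 24 genes at 0.25 d (21) and 14 to 22 at 0.5 d (21). They gave 17 to 20 at 0.75 d (18), 8 to 12 at 1 d (11) and 6 to 9 at 1.5 d (7). At 2 d they gave 5 to 11 (7) and at 3 d 12 to 16 (13). With array weights the number was 11 at 2 d (7), 2 at 4 d (1) and 3 for 1.5 d against the mean of 1 d and 2 d (0). A joint adjustment over the 10 comparisons gave 3 at 4 d and 1 at 7 d (0). For these the cause was not tested. Leaving out each array in turn gave 15 to 22 genes at 0.25 d, 18 to 23 at 0.5 d, 13 to 19 at 0.75 d, 7 to 13 at 1 d, 5 to 8 at 1.5 d, 6 to 10 at 2 d, 10 to 15 at 3 d, 1 to 4 at 4 d, 0 to 1 at 7 d and 0 at 14 d. It gave 16 to 20 for 7 d against 0.5 d, 14 to 21 for 3 d against 0.5 d, 0 for 14 d against 7 d and for 1.5 d against its neighbours, and 28 to 30 varying genes. Of 99 calls of a gene at a time against 0 d, 66 were kept whichever array was left out and 33 were lost without at least 1. Arrays with the same replicate number showed no strong shared deviation (165 pairs, correlations from -0.35 to 0.39, median 0.018). For differently numbered pairs the median was -0.010. A median near 0 cannot show whether some of the samples are paired by number. With the replicate block 22, 21, 17, 11, 7, 8, 13, 2, 0 and 0 genes were called at the 10 times against 0 d, 19 for 7 d and 19 for 3 d against 0.5 d, 0 for 14 d against 7 d and 0 for 1.5 d against its neighbours, and 28 varied; the count at 4 d thus moved from 1 to 2. Each gene was also followed at its farthest time: of 1530 values under other settings 0 were reversed, 29 lost their call and 5 gained one. Of 30 genes called there, 10 lost the call under at least 1 setting other than leaving out an array. With only the arrays compared, the genes that lost it were Cyp1a1, Cyp1b1, Cyp2c50, Cyp2c54, Cyp2d26, Cyp2d40, Cyp2e1, Cyp2j5 and Cyp3a25. Their adjusted p then lay between 0.051 and 0.25 (limma). Signals near 5, as for Cyp1a1, Cyp1b1, Cyp2b13, Cyp2d40 and Cyp3a44, and near 14, as for Cyp2e1 and Cyp3a11, limit how small a change can be seen.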

Other observations

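A pair of probe sets carries P450 symbols that the annotation cannot part, so they belong to none of the counts above. They were fitted with 4290 probe sets that lack a single symbol. The probe set shared by Cyp2a5, the coumarin hydroxylase, and Cyp2a4, a steroid 15-alpha-hydroxylase, read 13.17, 12.96 and 12.50 at 0 d, 11.02, 11.07 and 12.27 at 0.5 d and 10.21, 11.92 and 11.93 at 1 d. No array of 0.5 d or 1 d reached the lowest 0 d array. The differences were -1.42 ± 0.41 at 0.5 d (adjusted p = 0.014, limma), -1.31 ± 0.41 at 0.75 d and -1.52 ± 0.41 at 1 d (adjusted p = 0.016), beside 19.4%, 13.1% and 10.2% of those probe sets called at these times. At 7 d it stood 1.50 ± 0.41 above 0.5 d.

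The probe set shared by Cyp3a41a and Cyp3a41b, genes known for higher levels in female mice, had signals between 4.24 and 5.77. It was called at no time against 0 d, and it was 0.63 ± 0.20 higher at 7 d than at 0.5 d (adjusted p = 0.032, limma).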
